A study of Caenorhabditis elegans with 4 samples.

Results

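The genes described here are the 10 sarcomere genes of body wall muscle, found by name among the 47115 rows of the count table: unc-54, myo-3, unc-15, unc-22, unc-89, unc-27, mup-2, lev-11, act-4 and unc-52. They were read in RNA from whole synchronized adult C. elegans, in 2 libraries of an eggd-1 null mutant and 2 control libraries. The labels give the genotype of the first group as eggd-1 and of the second as pgl-1::RFP, a germ granule protein with a red fluorescent tag. They do not say whether the mutant carried the tag too. The study describes the mutation as a deletion of the whole open reading frame of eggd-1, whose protein anchors germ granules to the nuclei of the germ line. Each library came from a large pool of untreated animals on the same bacterial food, so muscle RNA was read together with that of the germ line, the embryos inside the adults and all other tissues.

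The body wall muscle of the worm is striated and runs in bands under the epidermis. Thick filaments of myosin wrap a core of paramyosin and slide along thin filaments of actin, where tropomyosin and the troponin complex make contraction depend on calcium. Giant proteins of the titin family lie along the thick filaments, and dense bodies and M lines tie both filament systems to integrins and, outside the cell, to a basement membrane that holds perlecan. Several of these genes are also used in other muscles of the animal, among them the muscles of the vulva and the contractile sheath of the gonad.

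The total count was 18707358 and 17603513 in the eggd-1 libraries and 20223368 and 30812591 in the control libraries, and eggd-1 itself, listed as mip-1, had 6 and 3 counts in eggd-1 against 2074 and 3177 counts in the control. Levels are given as counts divided by the DESeq2 size factor of the library, and called differences are those with a DESeq2 adjusted p-value under 0.05 over all rows. Ribosomal RNA took 0.437% and 0.536% of the counts in eggd-1, against 1.44% and 0.726% in the control. Control replicate 1, the library with the most ribosomal RNA, was below control replicate 2 for all 10 genes, by 0.08 to 0.54 on the log2 scale, whereas the eggd-1 libraries differed by -0.08 to 0.23 (replicate 2 over replicate 1). The part of the ribosomal RNA in this was not tested.

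Among the 10 genes, the 5 of the thick filament and its giant proteins, unc-54, myo-3, unc-15, unc-22 and unc-89, rose 1.76- to 2.05-fold in eggd-1. Of the 4 thin filament genes among them, act-4, lev-11, unc-27 and mup-2, only unc-27 passed the test, at 1.38-fold. Of the 10 genes, 7 were higher in eggd-1 by DESeq2, where 18.6% of the 16773 rows tested were. This share was larger among long genes, as described further on. By the same tool 0 were lower, where 20.4% of rows were, with 0 lower also at an unadjusted p-value under 0.05 and 0 by edgeR. For 9 of the 10, both eggd-1 libraries lay above both control libraries, an order found in 38.5% of rows, and 0 lay below, as 38.9% of rows did. The largest change was 2.05-fold, and 6.43% of rows were called with a change of at least 4-fold. Among the 4131 protein-coding rows with mean normalized counts from 1000 upward, a floor below the level of all 10 genes, 16.5% were higher and 32.9% lower, with a median of -0.11. The median log2 fold change of the 10 was 0.70, and the library medians varied within the groups with an SD of 0.169. The median of all rows tested was 0.00. The genes together took 1.76% (95% Wilson interval 1.76% to 1.77%) and 1.71% (1.70% to 1.71%) of all counts in the eggd-1 libraries, against 0.985% (0.981% to 0.990%) and 1.12% (1.11% to 1.12%) in the control libraries. These intervals cover counting error only. In whole-animal RNA, a changed share of muscle among the tissues and a changed level in each muscle cell cannot be told apart.

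**Figure D1:**
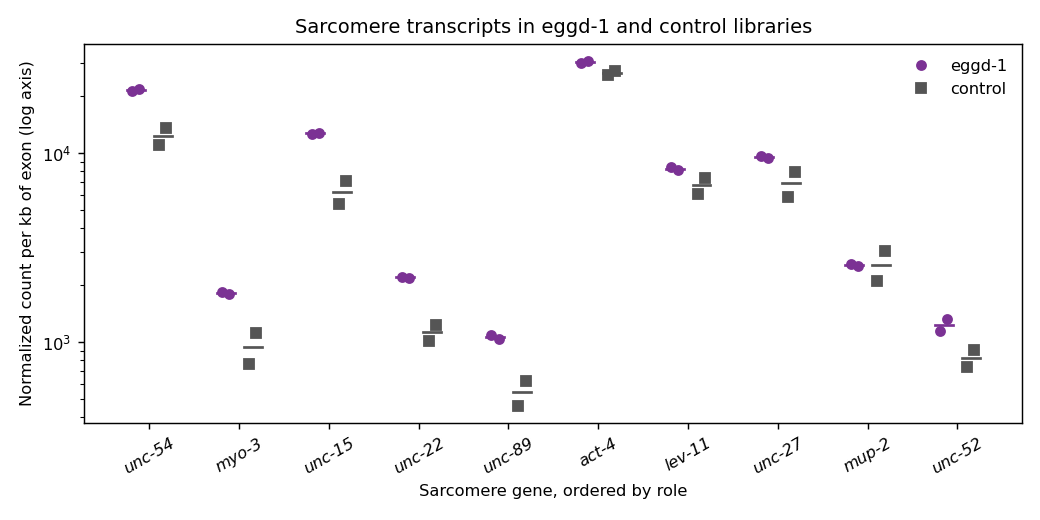
Normalized count per kilobase of exon on a log axis for the 10 sarcomere genes, with each library as a point and each group mean as a bar. The eggd-1 points lie above both control points for every gene other than mup-2, and the gap is widest for unc-54, myo-3, unc-15, unc-22 and unc-89.

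The major myosin heavy chain gene unc-54 (WBGene00006789, WBcel235 chromosome I, 14855901 to 14863482, minus strand, 1 annotated transcript) encodes the myosin of most of the thick filament. Its normalized count was 132415 and 135147 in eggd-1, against 68475 and 83845 in the control. Both eggd-1 values stood well above both control values, and unc-54 alone gave 0.641% and 0.628% of all counts in eggd-1 against 0.335% and 0.381% in the control. The fold was 1.76, or 0.81 on the log2 scale (SE 0.13, DESeq2 adjusted p = 1.05e-08).

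The second body wall heavy chain, myo-3 (WBGene00003515, chromosome V, 12226817 to 12234343, minus strand), forms the middle of the filament, where assembly starts. It had 11286 and 10935 normalized counts in eggd-1, against 4653 and 6771 in the control. The eggd-1 libraries were almost equal and the control libraries were apart, but the groups did not overlap (log2 fold change 0.96, SE 0.16, DESeq2 adjusted p = 5.71e-08). Per kilobase of exon, the level of unc-54 was 11.54 and 12.16 times that of myo-3 in eggd-1, against 14.48 and 12.18 times in the control. The proportion of the heavy chains was thus almost the same in eggd-1 replicate 2 and control replicate 2.

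Paramyosin, the core protein of the thick filament, is encoded by unc-15 (WBGene00006754, chromosome I, 7376604 to 7383197, minus strand, 3 transcripts). It had 43237 and 43916 normalized counts in eggd-1, against 18293 and 24212 in the control. This was the largest change among the 10 genes, 2.05-fold, with a log2 fold change of 1.04 (SE 0.14, DESeq2 adjusted p = 1.99e-11). Per kilobase, unc-15 stood at 0.592 and 0.589 of unc-54 in eggd-1 and at 0.484 and 0.523 in the control.

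The giant proteins of the thick filament followed the same pattern. Twitchin, a titin-like protein with a kinase domain that lies along the filament, is encoded by unc-22 (WBGene00006759, chromosome IV, 11972697 to 12011007, minus strand, 9 transcripts), which had 51765 and 50848 normalized counts in eggd-1 against 23634 and 28893 in the control. The change was 1.95-fold, or 0.97 on the log2 scale (SE 0.13, DESeq2 adjusted p = 6.13e-12). Exons of unc-22 overlap those of 2 other annotated genes on the same strand, and how reads from these stretches were counted was not tested. The worm obscurin of the M line is encoded by unc-89 (WBGene00006820, chromosome I, 4035702 to 4090885, plus strand, 16 transcripts), with 28412 and 26917 normalized counts in eggd-1 against 11919 and 16145 in the control. Its change was 1.97-fold, or 0.98 on the log2 scale (SE 0.15, DESeq2 adjusted p = 1.2e-09). Across the 5 genes of the thick filament and its giant proteins, the fold therefore ran from 1.76 to 2.05, and the log2 fold changes of unc-15, unc-22, unc-89 and myo-3 lay within their standard errors of each other.

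The thin filament genes were less uniform. The actin gene act-4 (WBGene00000066, chromosome X, 4960621 to 4964413, plus strand, 2 transcripts) had 48014 and 49013 normalized counts in eggd-1, against 41196 and 43474 in the control. The groups did not overlap, yet the log2 fold change of 0.20 (SE 0.11) did not pass the test (DESeq2 adjusted p = 0.166). Fractional counts stood in all 4 libraries of act-4, so that reads with several places in the genome enter its value. Which places these were was not tested. Tropomyosin, which winds along actin, is encoded by lev-11 (WBGene00002978, chromosome I, 14621169 to 14631094, minus strand, 20 transcripts). It had 20163 and 19287 normalized counts in eggd-1, against 14525 and 17575 in the control, with a log2 fold change of 0.30 (SE 0.13, DESeq2 adjusted p = 0.0578). The call moved with the scaling, as the adjusted p-value was 0.0296 with library totals and 0.0295 with size factors from genes outside the germline classes, and without control replicate 2 it was 0.000222 with a change of 0.42.

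The troponin genes of the list parted. Troponin I, the inhibitory subunit, is encoded by unc-27 (WBGene00006764, chromosome X, 8789456 to 8790621, plus strand), with 8978 and 8769 normalized counts in eggd-1 against 5474 and 7430 in the control. It rose 1.38-fold, or 0.46 on the log2 scale (SE 0.15, DESeq2 adjusted p = 0.00829). The call was lost without control replicate 1 (0.25, adjusted p = 0.0544). It was also lost without eggd-1 replicate 1 (0.44, adjusted p = 0.211) and without eggd-1 replicate 2 (0.48, adjusted p = 0.144), with the fold change about as large. Troponin T, the subunit that binds tropomyosin, is encoded by mup-2 (WBGene00003495, chromosome X, 6408471 to 6410227, minus strand), with 3798 and 3693 normalized counts in eggd-1 against 3065 and 4451 in the control. Here the eggd-1 values lay between the control values, with a log2 fold change of -0.01 (SE 0.17, DESeq2 adjusted p = 0.983). Leaving out control replicate 2 gave 0.27 and leaving out control replicate 1 gave -0.26, and the sign also turned under other settings.

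Perlecan is encoded by unc-52 (WBGene00006787, chromosome II, 14647321 to 14684456, minus strand, 17 transcripts). It is no filament protein but a proteoglycan of the basement membrane under the muscle, to which the filaments are anchored through integrins. It had 16204 and 18976 normalized counts in eggd-1, against 10468 and 12967 in the control. The groups did not overlap, and unc-52 rose 1.50-fold (log2 fold change 0.59, SE 0.14, DESeq2 adjusted p = 0.000243). Without eggd-1 replicate 2 the change was 0.47 and did not pass (adjusted p = 0.116). In the deposited gene classes, unc-52 is listed as Spermatogenic and lev-11 under MUT16, PRG1 and WAGO1, and the other 8 genes carry none.

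Levels per kilobase of exon gave an order of the transcripts in the control, with act-4 at 26443 ± 1006 and unc-54 at 12276 ± 1752 normalized counts per kilobase at the top (SD, n = 2). Below them, unc-27 (6915 ± 1482), lev-11 (6735 ± 905) and unc-15 (6207 ± 1222) did not differ beyond their spread. They were followed by mup-2 at 2565 ± 669 and by unc-22 at 1124 ± 159, myo-3 at 936 ± 245 and unc-52 at 822 ± 124, where neighbours again did not differ beyond their spread, and unc-89 was lowest at 541 ± 115.2. In eggd-1, unc-15 at 12727 ± 140 stood above unc-27 at 9511 ± 159 and lev-11 at 8277 ± 260, and act-4 at 30302 ± 442 and unc-54 at 21564 ± 312 kept the top of the order. The annotated exons of all transcripts were joined for these lengths, so genes with many alternative exons such as unc-89, unc-22 and unc-52 are understated.

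Ratios of genes within a library do not depend on the size factors, but the relation to exon length described further on remains in them. The ratio of unc-54 to act-4, both per kilobase, was 0.712 and 0.712 in eggd-1, against 0.429 and 0.498 in the control, 1.54 times as high. The ratio of unc-54 to lev-11 was 2.52 and 2.69 in eggd-1, against 1.81 and 1.83 in the control, so myosin transcript was higher in eggd-1 relative to both actin and tropomyosin transcript. Within troponin, the ratio of unc-27 to mup-2 was 3.71 and 3.73 in eggd-1, against 2.80 and 2.62 in the control. None of these 3 ratios overlapped between the groups. Such an order is common with 2 libraries a group, as 38.5% of single rows lay above and 38.9% below. Genes of like exon length had median log2 fold changes of 0.31 for unc-54 (6.20 kb), 0.10 for lev-11 (2.38 kb) and -0.07 for act-4 (1.60 kb). The medians were -0.55 for unc-27 (0.93 kb) and -0.29 for mup-2 (1.47 kb). Reads shared with other loci also enter act-4. With the length-dependent normalization described further on, unc-54 was at 0.48 and act-4 at 0.33, against 0.81 and 0.20 with the DESeq2 size factors. In that setting unc-27 was at 0.88 and mup-2 at 0.18, against 0.46 and -0.01. The part of length in the ratios was not tested further. With 2 libraries a group, the smallest two-sided p that an exact permutation test can give is 0.333, and no p-value is given for the ratios.

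Whether the rest of the sarcomere followed was asked with lists of other muscle genes. In whole animals, RNA of other tissues may enter their values too. The counts of each list stand beside 18.6% of all rows tested called higher and 20.4% called lower. Among 9 further thick filament genes, 3 were higher and 6 did not pass, with a median log2 fold change of 0.23. Without control replicate 2 there were 5 higher and 1 lower (median 0.49), and with the length-dependent normalization described further on 6 higher and 1 lower (median 0.47). The kinase gene unc-82 (1.07, SE 0.15, DESeq2 adjusted p = 1.09e-10) and the M-line gene unc-96 (1.05, SE 0.19, adjusted p = 8.32e-07) had the largest changes, and the third was ttn-1, the titin gene (0.93, SE 0.13, adjusted p = 3.16e-11), which was not called with length-dependent normalization (0.21, adjusted p = 0.198) and has reads shared with other loci. The myosin light chain genes did not pass the test. Their log2 fold changes were 0.13 for mlc-1, 0.22 for mlc-2 and 0.21 for mlc-3, with DESeq2 adjusted p-values of 0.471, 0.295 and 0.174, and mlc-1 and mlc-2 share reads with other loci. With length-dependent normalization all 3 were called higher, mlc-1 at 0.45, mlc-2 at 0.76 and mlc-3 at 0.47 (DESeq2 adjusted p = 0.00247, 2.69e-05 and 0.000581). Without control replicate 2, mlc-2 (0.49, DESeq2 adjusted p = 0.000586) and mlc-3 (0.28, adjusted p = 0.0293) were called, and without control replicate 1 mlc-2 was at -0.03. The myosin chaperone gene unc-45 was at -0.25 (adjusted p = 0.122), and it was called lower with length-dependent normalization (-0.46, adjusted p = 0.00339) and without control replicate 2 (-0.34, adjusted p = 0.0406).

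Of 14 further thin filament genes, 5 were higher, 3 lower and 6 did not pass, with a median of 0.17. The list had 1 higher and 0 lower without eggd-1 replicate 1, 1 and 2 without eggd-1 replicate 2, 3 and 4 without control replicate 1, and 1 and 7 with neuron-marker size factors. The largest rise was that of tni-3, another troponin I gene, with 848 and 878 normalized counts in eggd-1 against 406 and 455 in the control (log2 fold change 1.00, SE 0.16, DESeq2 adjusted p = 1.81e-08). It was followed by unc-78, which encodes a protein that promotes actin disassembly (0.55, SE 0.18, DESeq2 adjusted p = 0.00857). The call of unc-78 was lost without control replicate 1 (0.33, DESeq2 adjusted p = 0.163), eggd-1 replicate 1 (adjusted p = 0.208) or eggd-1 replicate 2 (adjusted p = 0.141). The lowest were act-2 (-0.52, SE 0.13, adjusted p = 0.000234) and the calponin-like gene clik-1 (-0.51, SE 0.12, adjusted p = 7.14e-05). Both lost the call without eggd-1 replicate 1, each at -0.49. The call of act-2 was also lost with length-dependent normalization (-0.26, DESeq2 adjusted p = 0.0922). The third lower gene was pat-10, the troponin C of body wall muscle (-0.33, SE 0.12, adjusted p = 0.0203). Its call was lost without eggd-1 replicate 1 (-0.41, adjusted p = 0.162), without eggd-1 replicate 2 (-0.26, adjusted p = 0.401), with size factors from genes outside the germline classes (-0.27, adjusted p = 0.0813) and with length-dependent normalization (0.07, adjusted p = 0.692). The other actin genes act-1 (-0.15, adjusted p = 0.323, but -0.24 and adjusted p = 0.0407 without control replicate 1) and act-3 (-0.07, adjusted p = 0.721) did not pass, and all of act-1, act-2 and act-3 share reads.

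In the attachment list of dense body and M-line genes, 10 of 18 were higher and 8 did not pass, with a median of 0.37. There were 3 higher without eggd-1 replicate 1 and 4 without eggd-1 replicate 2, 2 higher and 5 lower with neuron-marker size factors, and the median was 0.19 with length-dependent normalization. The LIM domain gene lim-8 (1.34, SE 0.17, DESeq2 adjusted p = 3.49e-13) and the M-line gene cpna-1 (1.25, SE 0.16, adjusted p = 5.55e-14) changed most, whereas the integrin beta gene pat-3 was at 0.15 (adjusted p = 0.359). Of 12 further basement membrane genes, 4 were higher, 2 lower and 6 did not pass (median 0.06). The share higher was 33.3%, against 18.6% of all rows, and 20.4% of all rows were lower. There were 2 higher and 1 lower when either eggd-1 library was left out, 1 and 7 with neuron-marker size factors, and 3 and 5 with length-dependent normalization (median -0.29). The type IV collagen genes let-2 (1.08, SE 0.14, adjusted p = 2.32e-13) and emb-9 (0.92, SE 0.13, adjusted p = 4.43e-11) rose, and the laminin genes lam-3 (-0.80, SE 0.15, adjusted p = 5.49e-07) and lam-1 (-0.35, SE 0.13, adjusted p = 0.0189) fell. The call of lam-1 was lost without eggd-1 replicate 1 (-0.26, adjusted p = 0.41), without eggd-1 replicate 2 (-0.44, adjusted p = 0.122) and with size factors from genes outside the germline classes (-0.28, adjusted p = 0.0701).

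Of 22 genes of excitation and calcium release, 6 were higher and 16 did not pass (median 0.22), a share of 27.3% against 18.6% of all rows. There were 3 higher when either eggd-1 library was left out, and 1 higher and 3 lower with neuron-marker size factors. The list was led by the junctophilin gene jph-1 (1.01, SE 0.16, DESeq2 adjusted p = 4.5e-09) and the GABA receptor gene unc-49 (0.92, SE 0.17, adjusted p = 1.07e-06). The muscle regulators hlh-1, the worm MyoD, and unc-120 did not pass, with 95.01 and 81.95 normalized counts of hlh-1 in eggd-1 against 84.01 and 106.5 in the control, and 200 and 178.6 of unc-120 in eggd-1 against 147.8 and 176.5 in the control. Across the muscle attachment sites of the epidermis, 6 of 8 genes were higher (median 0.66), with ifb-1 at 0.91 (SE 0.17, adjusted p = 4.35e-07) and let-805 at 0.91 (SE 0.14, adjusted p = 3.71e-10) the largest. With neuron-marker size factors 0 were higher and 1 lower, and the median was 0.24 with length-dependent normalization.

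**Figure D2:**
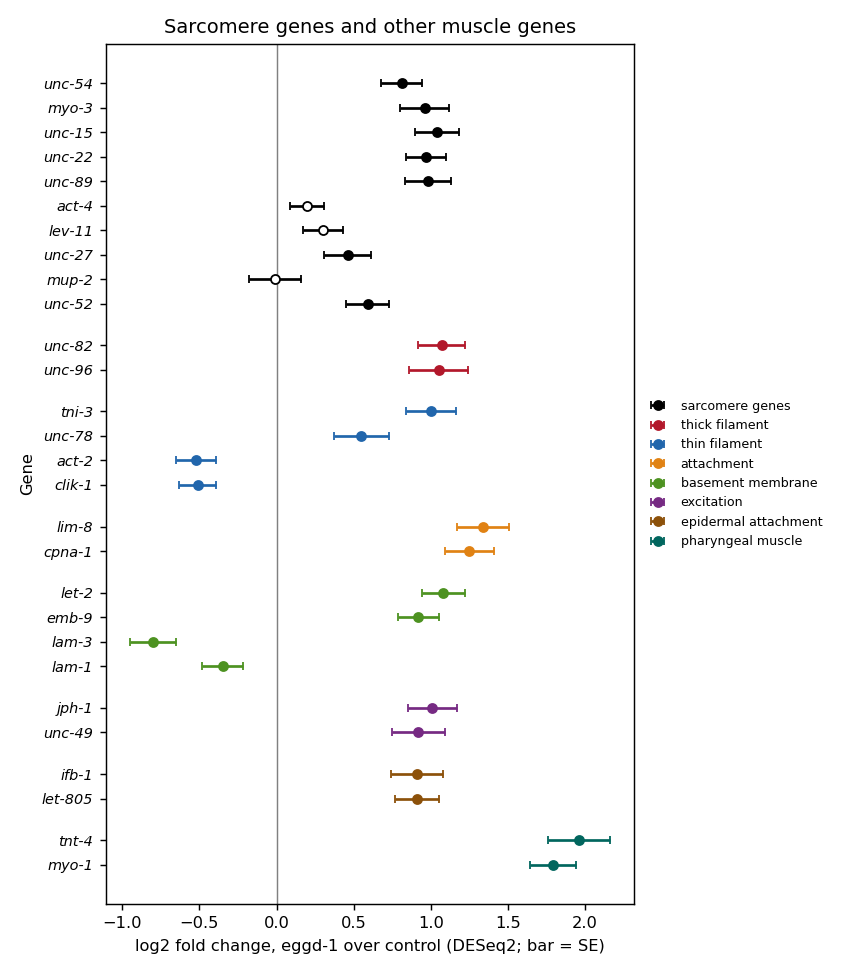
DESeq2 log2 fold change, eggd-1 over control, with its SE, for the 10 sarcomere genes and for the called genes with the largest changes of each muscle list; open points did not pass the test. Among the 10, the thick filament and giant protein genes lie between 0.81 and 1.04 and the thin filament genes between -0.01 and 0.46, whereas the further thin filament genes drawn run from act-2 at -0.52 to tni-3 at 1.00, and the pharyngeal genes tnt-4 and myo-1 at 1.96 and 1.79.

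Markers of other tissues moved as well, beside 18.6% of all rows tested called higher and 20.4% called lower. All 6 pharyngeal muscle genes had both eggd-1 libraries above both control libraries, an order found in 38.5% of rows. Of these pharyngeal genes, 5 were called higher (median 1.18). Their summed normalized level was 35095 and 35219 in eggd-1, against 10107 and 12620 in the control. The myosin of the pharynx encoded by myo-1 had 16531 and 16629 normalized counts in eggd-1, against 4030 and 5579 in the control (log2 fold change 1.79, SE 0.15, DESeq2 adjusted p = 2.79e-29), and troponin T of the pharynx, tnt-4, changed by 1.96 (SE 0.20, adjusted p = 1.39e-20). In gonadal sheath and spermatheca, 3 of 6 genes were higher and 2 lower (median 0.53), with a summed level of 47387 and 48963 in eggd-1 against 26509 and 31204 in the control. Of 13 neuron markers, 7 were higher and 1 lower (median 0.45), with 11661 and 11603 in eggd-1 against 7498 and 8184 in the control. Of 7 intestinal markers, 3 were higher and 1 lower (median 0.10), with 98079 and 101482 in eggd-1 against 72601 and 85568 in the control. Single abundant genes carried much of such sums. Of the intestinal sum, asp-1 gave 77958 and 80186 in eggd-1 against 52450 and 61924 in the control. Of the gonadal sheath and spermatheca sum, fln-1 gave 31878 and 33139 in eggd-1 against 16732 and 21023 in the control.

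The epidermal markers had a median of 0.40, with a summed level of 4135 and 4171 in eggd-1 against 2993 and 3926 in the control. The 2 of 7 called higher were rol-6 (log2 fold change 3.88, SE 0.41) and wrt-2 (3.24, SE 0.48), and 5 did not pass. Germ line and oocyte markers had a median of 0.17, with sums of 144417 and 158721 in eggd-1 against 109525 and 139575 in the control. Of these markers, 2 of 9 were higher, a share of 22.2% against 18.6% of all rows. The sperm markers had the highest median of these lists (2.24), and all 7 with an adjusted p-value, of 8, were higher. Their sums were 2262 and 1973 in eggd-1 against 380 and 502 in the control. Embryo markers were at a median of -1.10, with 3 of the 8 tested lower and sums of 333 and 276 in eggd-1 against 465 and 520 in the control. The embryo marker tbx-35 was at 0 in both eggd-1 libraries, against only 5.06 and 3.57 normalized counts in the control. It had no adjusted p-value. Left-out libraries moved several of these counts. Neuron markers had 4 higher without control replicate 2 or without eggd-1 replicate 1, germ line and oocyte markers 5 higher without control replicate 2 and 1 when either eggd-1 library was left out, and embryo markers 0 to 1 lower when any single library was left out. In gonadal sheath and spermatheca 0 to 1 were lower without control replicate 1 or either eggd-1 library. The part of these tissues in the values of the sarcomere genes was not tested.

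Exon length moved with the fold change across all genes. Among 9219 protein-coding genes that averaged 100 or more normalized counts, the median log2 fold change was -0.55 for genes with 0.5 to 1 kb of exon and -0.29 from 1 to 1.5 kb. It was 0.24 from 3 to 4 kb, 0.31 from 6 to 10 kb and 0.40 for the 50 genes above 10 kb, of which 54% were called higher. The share called higher was 45.45% from 6 to 10 kb, 35.5% from 3 to 4 kb and 9.79% from 0.5 to 1 kb. Spearman's rho of length and fold change across these genes was 0.443, and the corresponding rho for replicate 2 over replicate 1 was 0.286 within eggd-1 and 0.182 within the control. Genes are not independent replicates, and no p-value is given. The thick filament and giant protein genes are long (3.42 to 25.9 kb of exon) and the thin filament genes are short (0.93 to 2.38 kb), so role and length go together in this list.

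Each of the 10 genes stood above the median of its own length class, by 0.19 for unc-52 and 0.20 for lev-11 up to 0.80 for unc-15 and 1.01 for unc-27. The difference was 0.50 for unc-54, 0.65 for myo-3, 0.57 for unc-22 and 0.58 for unc-89. The short gene unc-27, with 0.93 kb, lay above 89.3% of the 1747 genes of its class. The share was lower for unc-52 (62%), mup-2 (67.7%), lev-11 (68.1%) and act-4 (70.5%). For the other genes it ran from 81.8% for unc-54 to 92.55% for unc-15. When the libraries were normalized with a length-dependent factor, a setting chosen after seeing the data, the log2 fold changes were 0.48 for unc-54, 0.64 for myo-3, 0.84 for unc-15, 0.39 for unc-22, 0.40 for unc-89 and 0.88 for unc-27, all called higher. In that setting act-4 was called too (0.33, DESeq2 adjusted p = 0.0116), unc-52 was no longer called (0.09, adjusted p = 0.582), and the thick and thin filament genes overlapped, with unc-27 above unc-15. Over all rows, 3786 were then higher and 1806 lower, against 3127 and 3426 without it, and the median of all rows moved to 0.16. The median of the 10 genes was then 0.40, or 0.23 above that of all rows, against 0.69 above it without the length-dependent factor. The part of length in the measured changes was not tested further.

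**Figure D3:**
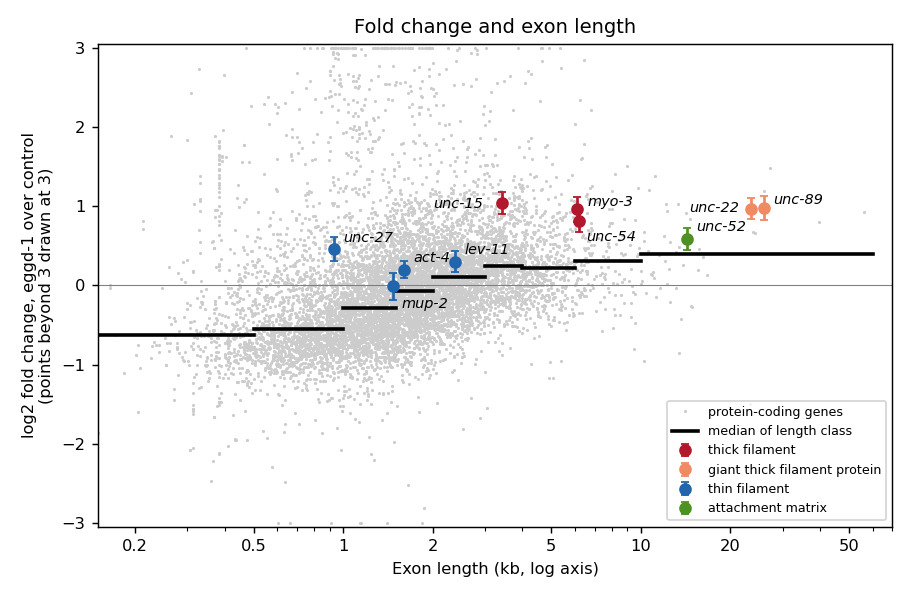
DESeq2 log2 fold change, eggd-1 over control, against exon length on a log axis, for protein-coding genes that averaged 100 or more normalized counts (grey), with the median of each length class (black bars) and the 10 sarcomere genes with their SE; changes beyond 3 are drawn at 3. All 10 lie above the median of their class, by 0.19 to 1.01.

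The fold changes also depend on what the libraries are scaled to. With size factors from 13 neuron markers, a somatic tissue other than muscle, the median of all rows was -0.54 and that of the sarcomere genes 0.15, a difference of 0.69, as with the DESeq2 size factors. With the DESeq2 size factors, these 13 markers themselves ranged from -0.72 to 1.45. Against neurons, 3 genes were called higher, unc-15 (0.48), unc-22 (0.42) and unc-89 (0.43), and 2 were called lower, act-4 (-0.35) and mup-2 (-0.56). Over all rows, 1343 were then called higher and 7269 lower. By this scaling unc-54 was at 0.26 (DESeq2 adjusted p = 0.185), myo-3 at 0.41 (adjusted p = 0.0786) and unc-52 at 0.03 (adjusted p = 0.889). Such a scaling shifts all genes of a library alike and leaves the distance between thick and thin filament genes as it was.

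**Figure D4:**
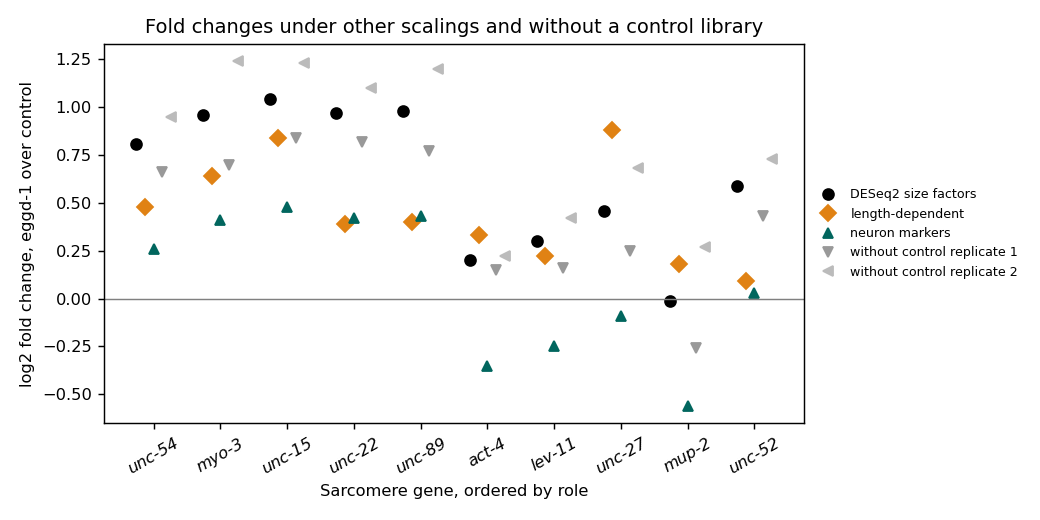
Log2 fold change, eggd-1 over control, of each sarcomere gene with the DESeq2 size factors, with length-dependent factors, with size factors from neuron markers, and without either control library. The neuron scaling lowers every gene and leaves the thick filament genes above the thin filament genes, whereas the length-dependent factors raise unc-27 to 0.88 and lower unc-52 to 0.09.

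The pattern of the 10 genes over the 4 libraries was compared with that of 4167 other rows that averaged 1000 or more normalized counts. The median of the sarcomere genes, on log2 values centred on each gene's mean, was 0.33 and 0.42 in eggd-1 and -0.51 and -0.18 in the control. By Euclidean distance the nearest rows were gsa-1 (0.037), which encodes a G protein alpha subunit, pat-12 (0.046), a gene of the epidermal attachment list, D1037.1 (0.047), T23E7.2 (0.050) and rcq-5 (0.053), a RecQ helicase gene. With 4 libraries, such likeness is a description of these values only.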

How the data were processed

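RNA from whole adults was read in 4 libraries, 2 of eggd-1 and 2 of control, with groups taken from the sample titles. The replicates are named sequencing replicates there and biological in the study, and p-values measure only the spread between these libraries. No pair agreed within sampling noise (chi-square per degree of freedom of 4.89 for eggd-1 and 26.8 for the control). The authors depleted ribosomal RNA, aligned reads with STAR to WormBase WS279 and counted them by strand with featureCounts, dividing reads among their places, and the deposited values are expected counts, neither normalized nor always whole. The table's 7 further count columns match no sample here and were not used.

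Expected counts were rounded, and rows with at least 1 count were compared by the Wald test of DESeq2 1.42.0 (R 4.3.3) without shrinkage, with p-values adjusted by Benjamini-Hochberg after independent filtering at 0.05. A count of 0 allows up to 3 counts. Alternatives were edgeR 4.0.16, other size factors and filters, ashr shrinkage, a test against 1.5-fold, rounding downward, the replicate number as a block and each library left out. The tests were tested on simulated data. Exon lengths and positions were read from Ensembl's WBcel235 gene models, the genes' names from the deposited table.

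The 10 genes and the 15 further lists were chosen with earlier results of these data known. Named genes are the 10, eggd-1, the other actin genes, up to 2 called genes with the largest change in each direction per muscle list, and the 5 rows of nearest pattern. Genes named beyond this (ttn-1, mlc-1, mlc-2, mlc-3, unc-45, pat-10, pat-3, hlh-1, unc-120, asp-1, fln-1, rol-6, wrt-2 and tbx-35) were chosen after their values were seen. Sequences were not used here.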

Additional observations from a re-analysis of the deposited data

How the results depend on the processing

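The count of 7 higher and 0 lower sarcomere genes became 3 and 2 with size factors from neuron markers. These markers themselves had a median of 0.45 with the DESeq2 size factors. When tested against 1.5-fold, which asks whether a change is larger than 1.5-fold, 1 sarcomere gene was higher. The median log2 fold change of 0.70 became 0.15 with neuron markers and 0.40 with length-dependent normalization, and its distance from the median of all rows was 0.69 with neuron markers and 0.23 with length-dependent normalization, against 0.69. Leaving out each library gave 5 to 8 higher, 0 to 0 lower and a median of 0.55 to 0.84, and all rows then gave 1174 to 2505 higher and 1497 to 2896 lower. A group left with 1 library is assumed to vary like the other. The replicate number as a block gave 7 higher, 0 lower and a median of 0.70. The deviations of same-numbered libraries did not go together (correlation -0.073 over 9504 genes). A pairing by number was thus not seen, though a single correlation cannot exclude it. Among the genes named, the block ended the calls of lam-1 (adjusted p = 0.0607) and pat-10 (adjusted p = 0.0667). With neuron markers, a scaling that moved the median of all rows to -0.54, the sign turned for unc-27 (-0.09), lev-11 (-0.25), act-4 (-0.35), unc-78 (-0.00), mlc-1 (-0.42), mlc-2 (-0.33), mlc-3 (-0.34), pat-3 (-0.39) and unc-120 (-0.33). The sign of mup-2 turned with library totals (0.01), size factors from genes outside the germline classes (0.05), the block (0.02), length-dependent normalization (0.18) and without single libraries, where it ran from -0.26 to 0.27, at 0.27 without control replicate 2 and 0.02 without eggd-1 replicate 2. The sign of act-3 turned without control replicate 2 (range over left-out libraries -0.17 to 0.02) and with length-dependent normalization (0.08), which also turned act-1 (0.12), pat-10 (0.07), pat-3 (-0.00) and hlh-1 (0.19). Among left-out libraries mlc-2 ran from -0.03 to 0.49 and hlh-1 from -0.28 to 0.06. The cause of the turns was not tested. The counts of all rows higher and lower were 1343 and 7269 with neuron markers and 913 and 271 when tested against 1.5-fold. Reads with several places, as in the actin genes, and 2 libraries a group, limit the precision of single values.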
